A study of Mus musculus with 4 samples.

Results

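The 10 genes described here, Tfcp2l1, Tbx3, Klf2, Klf5, Esrrb, Nr0b1, Nr5a2, Prdm14, Gbx2 and Tcl1, hold mouse embryonic stem cells (ESCs) in the naive state. They were taken as a list of symbols that was chosen with earlier results of these data known. Counts and medians over the list are therefore descriptions. All 10 were found among the 18193 genes with a single-gene probe set on the array, through 23 of 34945 such probe sets. Their messenger RNA was measured in 3 NT-ESC lines (NT-1, NT-2 and NT-3), which are ESC lines from blastocysts cloned by nuclear transfer, and in the parental donor, an induced pluripotent stem cell (iPSC) clone (Adeno-1) obtained with adenoviral vectors from fibroblasts of the tail tip, on 1 Affymetrix array each. All 4 cultures grew in medium with serum and leukaemia inhibitory factor (LIF) on irradiated embryonic fibroblasts, which were depleted by a short replating before RNA was taken. The clone is a single clone on a single array, and the labels call the lines subclones of it without saying whether they were separate derivations. The errors given here therefore measure the spread between arrays. Between lines and clone that spread comes from the lines, so it does not show how the clone's array varies.

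In naive cells LIF acts through its receptor and JAK kinases on STAT3, whose targets include Tfcp2l1 and Gbx2, while Tbx3 responds to the phosphoinositide 3-kinase branch of the same signal. A second input, through beta-catenin, relieves repression by Tcf7l1 of genes such as Esrrb and Nr5a2. These factors feed on Nanog, Oct4 and Sox2 and on each other, so that single members can often be lost in serum and LIF without loss of self-renewal. Most of the 10 encode transcription factors. Tcl1 does not: its product is a cofactor of the kinase Akt.

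Levels are log2 intensities rebuilt from the deposited values with the mean of each array set to an assumed 7, so the size of a log2 difference scales with that choice (14.3% smaller with a mean of 6). Bright means at or above 6.83, the median level of all probe sets. A gene's level is that of its brightest probe set. All 10 genes were bright, and 11745 of the 18193 genes were. Levels on this scale are not compared between genes.

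In 6 of the 10 genes (Tfcp2l1, Tbx3, Klf2, Esrrb, Nr5a2 and Prdm14) the clone stood below every NT-ESC line, and in 1, Nr0b1, it stood above every line. Across all bright genes the clone was below every line in 29.9% and above every line in 21.4%. The median log2 difference between the lines and the clone was 0.19 over the 10 genes, with 8 of 10 positive, against 0.016 over bright genes and -0.0031 over all genes. Taken line by line, the median of the 10 genes was 0.22 in line 1, 0.21 in line 2 and 0.095 in line 3, each relative to the clone. No member was called: at a Benjamini-Hochberg adjusted p under 0.05 by limma, 0% of genes passed in the higher direction and 0% in the lower one (smallest adjusted p = 0.856). At an unadjusted p under 0.05, 629 genes (3.46%) were higher, among them Tfcp2l1, Tbx3 and Esrrb, and 377 (2.07%) were lower, none of them a member. With 1 array out of 4 singled out, an exact permutation test cannot go below p = 0.25.

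**Figure D1:**
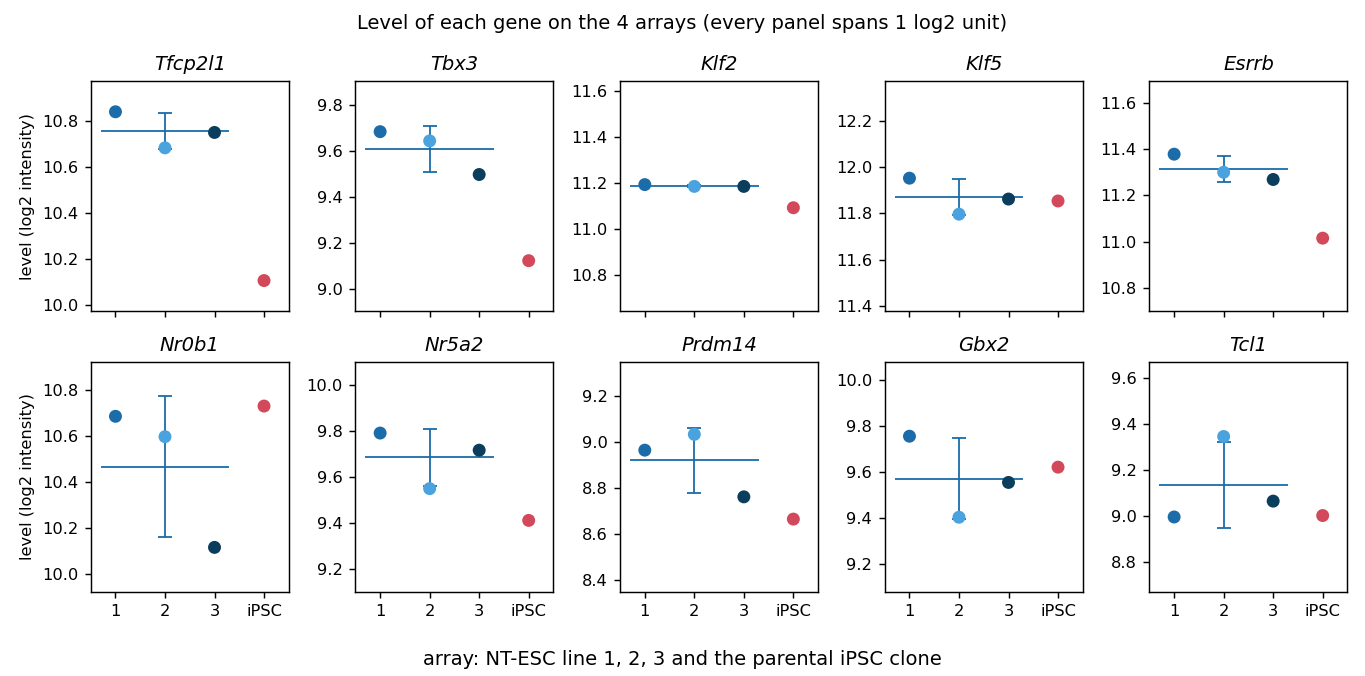
Level of each of the 10 genes in log2 intensity on the arrays of NT-ESC lines 1, 2 and 3 (blue) and the iPSC clone (red); the line and bar are the mean and SD of the 3 lines, and every panel spans the same range. The red point lies under all 3 blue points for Tfcp2l1, Tbx3, Klf2, Esrrb, Nr5a2 and Prdm14, and above them for Nr0b1.

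The clone's array also stood apart on the added hybridization controls, bacterial and phage transcripts put into every sample. All 18 of their probe sets were lowest on the clone's array and highest on that of line 1. The lines exceeded the clone by 0.15 to 0.34 log2 there, with a median of 0.23. Genes of like brightness moved less: the median log2 difference was 0.036 for 2485 genes between levels 9 and 10 and 0.033 for 1268 genes between 10 and 11. The 3' to 5' gap of Actb was 0.28, 0.42 and 0.29 log2 in lines 1, 2 and 3 and 0.22 in the clone. That of Gapdh was -0.058, 0.029 and -0.038 in the lines and -0.067 in the clone, close to line 1. The part of these array features in the members' differences was not tested. Of the 10 genes, only Tfcp2l1 and Tbx3 had a difference above the largest of the hybridization controls, 0.34.

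**Figure D2:**
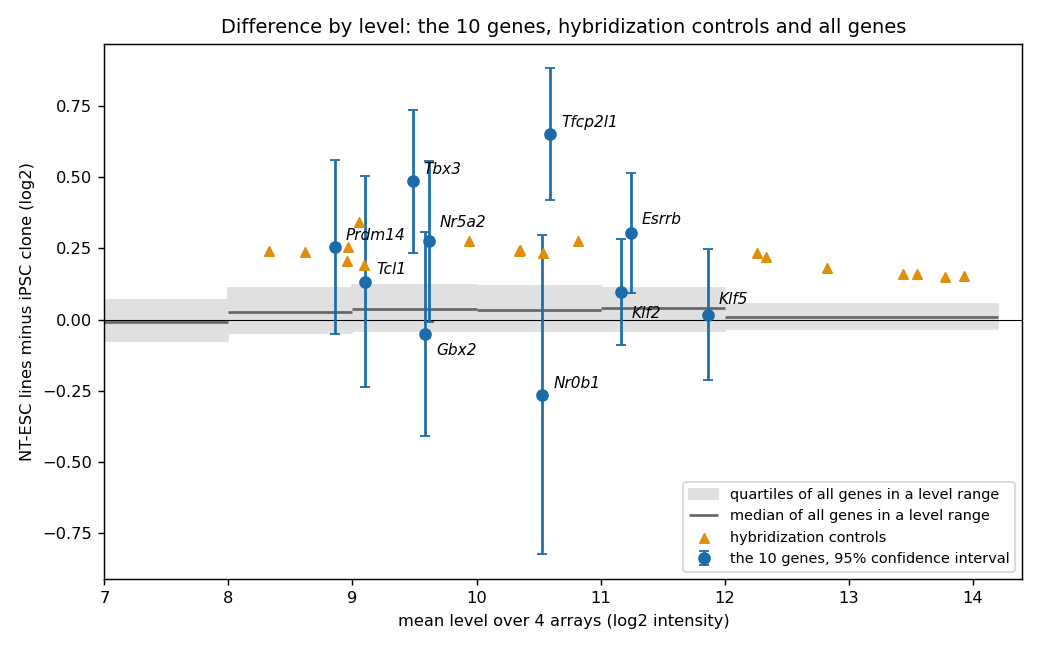
NT-ESC lines minus iPSC clone (log2) against mean level, for the 10 genes (blue, with limma's unadjusted 95% confidence interval), the 18 hybridization control probe sets (orange triangles) and all genes in each level range (grey, median and quartiles). Tfcp2l1 at 0.65 and Tbx3 at 0.48 lie above the triangles, which run from 0.15 to 0.34, while Esrrb, Nr5a2 and Prdm14 lie among them.

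Tfcp2l1, a transcription factor of the grainyhead-like family that LIF switches on through STAT3, showed the widest gap. It stood at 10.84, 10.68 and 10.75 in lines 1, 2 and 3, against 10.11 in the clone. The 3 lines lay within 0.16 of each other, and the nearest of them was 0.58 above the clone, the 3rd widest such gap of all 18193 genes and the 2nd widest of the bright ones. The mean difference was 0.65 ± 0.09 log2 (SE; 1.57-fold, unadjusted 95% confidence interval 1.34 to 1.84), and limma's Benjamini-Hochberg adjusted p was 0.856. The other pair of probe sets lay far below the median level of the array, at 3.88 to 4.27 and at 4.35 to 4.91, and the clone was lowest on both. With the mean of the 3 probe sets in place of the brightest the clone was below every line, by a smaller mean difference of 0.43. That mean includes the brightest probe set, so it is not a separate check.

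The sequence before the annotated start of Tfcp2l1 is shown because this gene had the widest gap, and that of Esrrb because it is the 1 member whose searched window held a STAT motif. Both are RefSeq promoters (GRCm38.p6), the 250 bases before the start, 5′ to 3′. Tfcp2l1 lies at chr1:118627695-118627944 on the plus strand and Esrrb, at the first of its 2 annotated starts, at chr12:86360867-86361116 on the plus strand. Capitals mark CCACNCCC, a form of the Klf motif, in Tfcp2l1 and TTCNNNGAA, the STAT motif, in Esrrb.
Tfcp2l1: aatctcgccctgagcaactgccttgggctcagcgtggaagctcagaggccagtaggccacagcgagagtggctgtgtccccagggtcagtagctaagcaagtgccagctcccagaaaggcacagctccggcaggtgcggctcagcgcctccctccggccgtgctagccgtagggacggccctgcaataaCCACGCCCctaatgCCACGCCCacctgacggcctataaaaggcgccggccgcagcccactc
Esrrb: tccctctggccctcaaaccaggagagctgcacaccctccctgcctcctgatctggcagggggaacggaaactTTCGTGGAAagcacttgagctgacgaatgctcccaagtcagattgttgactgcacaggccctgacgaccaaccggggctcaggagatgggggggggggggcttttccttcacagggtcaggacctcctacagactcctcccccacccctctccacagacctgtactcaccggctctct
Tfcp2l1 held 2 Klf matches, 61 to 54 and 47 to 40 bases before the start, and Esrrb 1 STAT match 178 to 170 bases before it. The search covered both strands of the full 300 bases, which run on to 50 bases past the start, in 9 promoters of 7 members (Tfcp2l1, Esrrb, Nr5a2, Klf2, Gbx2, Nr0b1 and Tcl1). The Klf motif was in 17.6% of 32851 mouse promoters of that length and the STAT motif in 8.3%, so neither is rare. The second Nr5a2 promoter also held a Klf match. The half-site AAGGTCA that Esrrb and Nr5a2 bind, the paired Tfcp2l1 motif and the Tcf7l1 motif ATCAAAG had no match in these 9 windows, against 4.72%, 3.44% and 3.73% of all promoters.

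Tbx3, a T-box factor that sustains Nanog and holds back differentiation, was also lowest in the clone. Its level was 9.68, 9.64 and 9.50 in lines 1, 2 and 3, against 9.12 in the clone. The nearest line was 0.37 above the clone. Among all genes this was the 40th widest gap of those with the clone lowest. The difference was 0.48 ± 0.10 log2 (SE; 1.40-fold, 95% confidence interval 1.18 to 1.67; limma, Benjamini-Hochberg adjusted p = 0.856). All 4 of its bright probe sets had the clone lowest. The second brightest stood at 9.36, 9.42 and 9.37 in the lines and 8.91 in the clone, a difference of 0.47. The other 2 differed by 0.38 and 0.20. The fifth, at 4.86 to 5.09, lay under the median level and had the clone highest.

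The Klf factors are zinc finger proteins that bind GC-rich sites and can stand in for each other in ESCs. Klf2, whose protein is removed when the ERK pathway is active, stood at 11.19, 11.18 and 11.18 in the lines and at 11.09 in the clone. The lines lay within 1 step of the deposited values of each other, and the difference was 0.10 ± 0.07 log2 (SE; 95% confidence interval -0.09 to 0.28; limma, Benjamini-Hochberg adjusted p = 0.886). Klf5, which counters primitive endoderm fate in the embryo, stood at 11.95, 11.80 and 11.86 in the lines and 11.85 in the clone, so the clone lay within the lines. The Klf5 difference of 0.02 had a 95% confidence interval of -0.21 to 0.25. The second brightest Klf5 probe set read 8.88, 8.58 and 8.60 in the lines and 8.53 in the clone. Klf4, the STAT3-driven relative in this trio, stood at 12.188, 12.154 and 12.087 in the lines and 12.003 in the clone. Over all bright genes the clone was below every line in 29.9% and above every line in 21.4%. Of 13 measured Klf genes outside the members, 5 had the clone below every line and 2 above, with a median difference of 0.028 and none called.

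Esrrb, an orphan nuclear receptor that works beside Oct4 and can replace Nanog in self-renewal, was lowest in the clone on its brightest probe set. That probe set read 11.38, 11.30 and 11.27 in the lines, against 11.01 in the clone. The difference was 0.30 ± 0.08 log2 (SE; 1.23-fold, 95% confidence interval 1.07 to 1.43; limma, Benjamini-Hochberg adjusted p = 0.856). The other probe sets did not share a difference of that size. On the second the clone was also lowest, with a difference of 0.04. There the lines read 10.25, 10.17 and 10.19 and the clone 10.16. On the third the lines read 9.89, 9.46 and 9.76 and the clone 9.71, inside their range, with a difference of -0.0073.

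**Figure D3:**
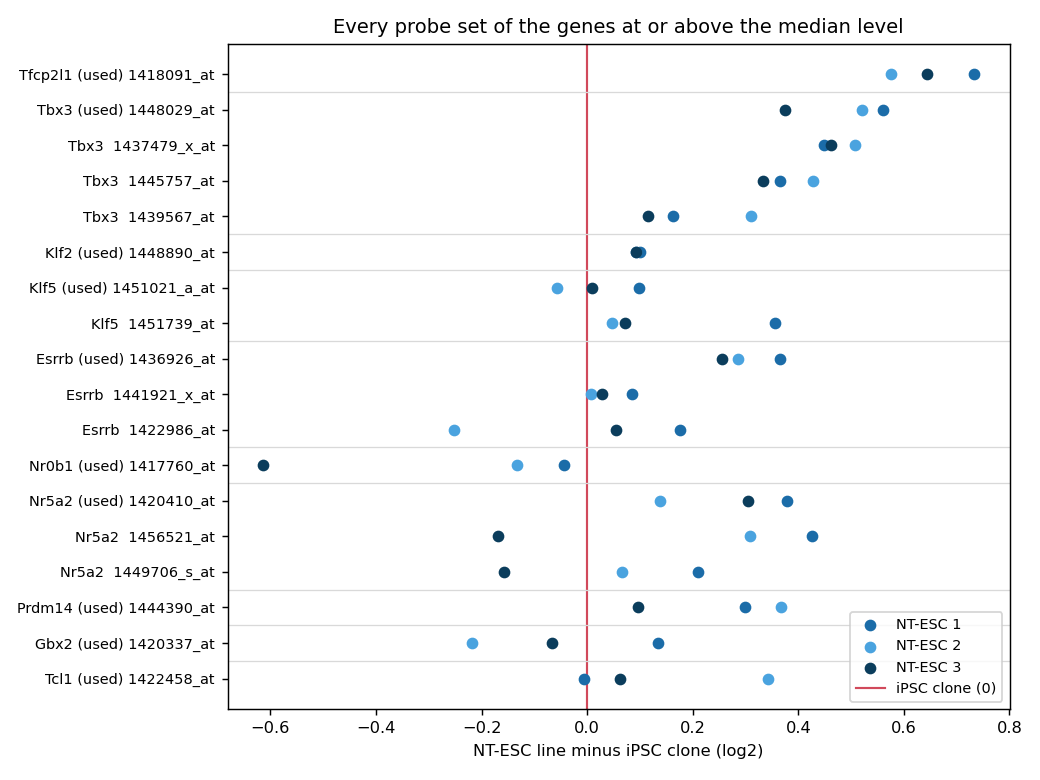
Each NT-ESC line minus the iPSC clone (log2) for the 18 probe sets of the 10 genes at or above the median level; the red line at 0 is the clone. All 3 lines lie right of the clone on the Tfcp2l1 probe set and on 4 of 4 Tbx3 probe sets, whereas the probe sets of Esrrb and Nr5a2 disagree with each other.

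Nr5a2 (Lrh-1), a nuclear receptor that binds the Oct4 gene, also had probe sets that disagreed. The brightest read 9.79, 9.55 and 9.72 in the lines and 9.41 in the clone, a difference of 0.27 ± 0.11 log2 (SE; 95% confidence interval -0.01 to 0.56; limma, Benjamini-Hochberg adjusted p = 0.856). On the second the lines read 9.52, 9.40 and 8.92 and the clone 9.09. On the third they read 8.11, 7.96 and 7.74, and the clone 7.90. Line 3 was thus above the clone on the brightest probe set and below it on these 2, while lines 1 and 2 were above the clone on all 3.

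Over the members' 18 bright probe sets the clone was lowest on 11, and on 5 of the 8 that were not used to represent a gene. For all 19644 bright single-gene probe sets the share was 29.4%. Probe sets of a gene come from the same RNA and are not replicates.

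Nr0b1 (Dax1), an orphan receptor without the usual DNA-binding domain that binds Oct4 and Nr5a2 proteins, was highest in the clone. It stood at 10.68, 10.60 and 10.11 in lines 1, 2 and 3, against 10.73 in the clone. Lines 1 and 2 lay within 0.13 of the clone, and line 3 lay 0.61 below it. The difference of the lines was -0.26 ± 0.22 log2 (SE; limma, Benjamini-Hochberg adjusted p = 0.896).

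Prdm14, a PR-domain protein that keeps FGF receptor and de novo DNA methyltransferase genes low through Polycomb, stood at 8.97, 9.03 and 8.76 in the lines and 8.67 in the clone. Line 3 was nearest to the clone, 0.10 above it. The difference was 0.25 ± 0.12 log2 (SE; 95% confidence interval -0.05 to 0.56; limma, Benjamini-Hochberg adjusted p = 0.856). Gbx2, a homeobox target of STAT3, stood at 9.76, 9.40 and 9.56 in the lines and 9.62 in the clone, which lay within the lines. Tcl1, the Akt cofactor, stood at 8.996, 9.346 and 9.065 in the lines and 9.003 in the clone, with line 2 alone set apart. The Gbx2 and Tcl1 differences were -0.05 and 0.13, with 95% confidence intervals of -0.41 to 0.31 and -0.24 to 0.50.

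The array that lay farthest from the mean of the other 3 was the clone for 6 genes, line 2 for Gbx2 and Tcl1, line 1 for Klf5 and line 3 for Nr0b1. Each NT-ESC line was then set against the other 3 arrays taken as a group. Line 1 was the highest array for 7 of the 10 genes, where 23.4% of bright genes had line 1 above every other array, and the lowest for 1, where 18.4% had it below. Its differences ran from -0.14 for Tcl1 to 0.33 for Tfcp2l1. By limma 0% of genes were called higher and 0% lower for line 1, and the members' adjusted p-values were 0.998; at an unadjusted p under 0.05, 252 genes were higher (1.39%) and 252 lower (1.39%), none of them a member. The hybridization controls were highest on the same array.

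Line 2 was the highest array for Prdm14 and Tcl1 and the lowest for Klf5 and Gbx2, where 25.1% of bright genes had line 2 above every other array and 17.3% below. In line 2, Tcl1 stood at 9.346, against 8.996 and 9.065 in lines 1 and 3 and 9.003 in the clone. The difference was 0.32 ± 0.08 log2 (SE; 1.25-fold), with an unadjusted limma p of 0.00959 and a Benjamini-Hochberg adjusted p of 1.0. Of its relatives in the same cluster on chromosome 12, Tcl1b1 stood at 7.83, 7.95 and 7.85 in the lines and 7.78 in the clone, and Tcl1b3 at 11.63, 11.66 and 11.63 in the lines and 11.69 in the clone. Gbx2 was lowest in line 2, by 0.24 ± 0.11 (SE). For line 2, too, 0% of genes were called in either direction, with 227 higher (1.25%) and 196 lower (1.08%) at an unadjusted p under 0.05; Tcl1 was the 1 member among them.

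Line 3 was the highest array for 0 of the 10 genes and the lowest for 1, Nr0b1, where 26.7% of bright genes had line 3 above every other array and 31.1% below. Nr0b1 in line 3 was lower than on the other arrays. It stood at 10.11 in line 3, against 10.68 and 10.60 in lines 1 and 2 and 10.73 in the clone. The difference was -0.55 ± 0.09 log2 (SE; 0.681-fold, 95% confidence interval of the log2 difference -0.76 to -0.35), and it did not pass the threshold (limma, Benjamini-Hochberg adjusted p = 0.0614). Of all genes 0.159% were called higher and 0.302% lower for line 3, and at an unadjusted p under 0.05 the shares were 5.8% and 5.76%, with Nr0b1 the 1 member among the lower ones. The Nr0b1 call depended on the fit: the adjusted p was 0.0339 with means of probe sets, 0.0489 without dim genes and 0.0398 with a trended, robust prior in limma, but 0.0545 after quantile normalization and 0.259 on the values as deposited. Without any 1 of the other arrays it was 0.348 to 0.597, while the difference was -0.53 to -0.59. No other member differed from the other arrays by more than 0.21 in line 3.

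Nr0b1 lies on the X chromosome. Of 353 bright X-linked genes, 45.6% were lowest in line 3 and the median log2 difference there was -0.061; 12 of them lay below Nr0b1. Klf2 lies on chromosome 8, whose 636 bright genes had a median of 0.27 in line 3, with 82.2% of them highest there. Klf2 stood at 11.18 in line 3, against 11.19 and 11.18 in lines 1 and 2 and 11.09 in the clone, a log2 difference of 0.03 with a 95% confidence interval of -0.17 to 0.23. Its chromosome's median lay outside that interval, which does not take in the spread of single genes around the median. Whether Klf2 departs from its chromosome was not tested. Tfcp2l1, Nr5a2, Prdm14 and Gbx2 lie on chromosome 1, whose 653 bright genes had a median of 0.075 in line 3 and of 0.040 between all lines and the clone.

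**Figure D4:**
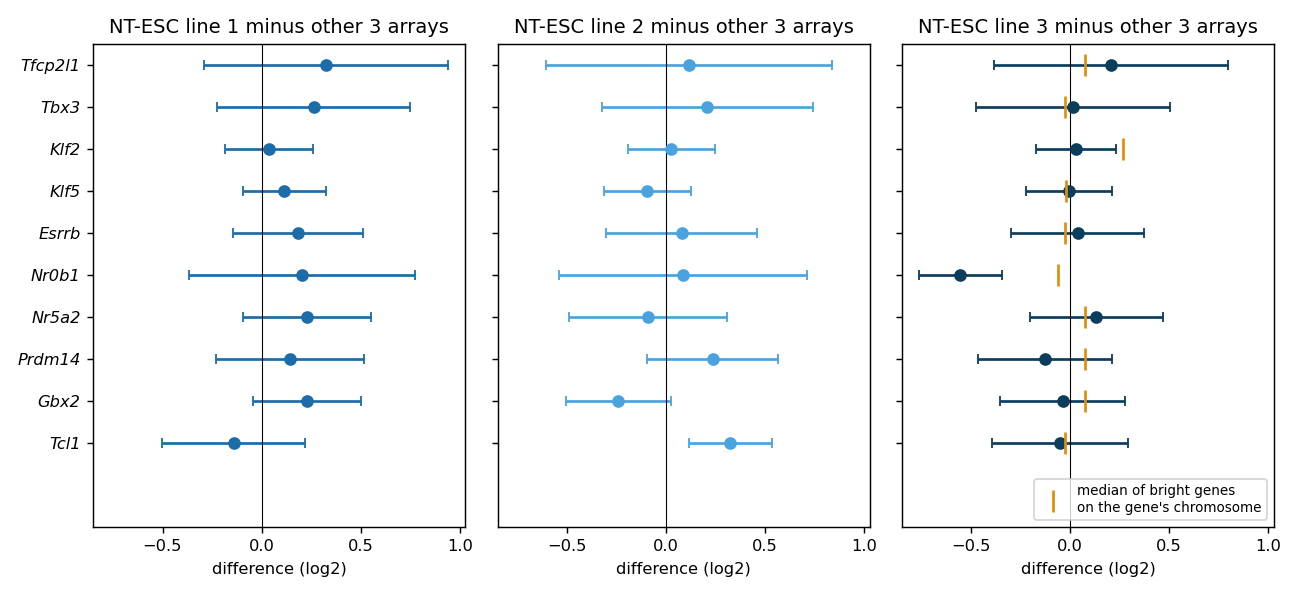
Log2 difference of each NT-ESC line from the other 3 arrays for the 10 genes, with limma's unadjusted 95% confidence interval; orange ticks in the right panel are the median of bright genes on the gene's own chromosome. Nr0b1 in line 3, at -0.55, and Tcl1 in line 2, at 0.32, are the 2 intervals that leave out 0.

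Genes of the pathways that feed the members, including targets and feedback genes of these pathways, were measured in the same way. Of 18 genes of the LIF and STAT3 pathway, all bright, 7 had the clone below every line and 2 above, with a median difference of 0.076 and none called between lines and clone. Across all bright genes the clone was below every line in 29.9% and above every line in 21.4%. Stat3 itself stood at 9.99, 9.95 and 9.94 in the lines and 9.92 in the clone. The receptor gene Lifr stood at 9.63, 9.63 and 9.76, against 9.46, and Socs3, the feedback inhibitor that STAT3 induces, at 11.34, 11.42 and 11.67, against 11.25. Ccnd3, which encodes cyclin D3, differed most in this list, by 0.40 ± 0.13 (SE; limma, Benjamini-Hochberg adjusted p = 0.856). Sgk1, a kinase gene, was called lower in line 3 (-0.84 ± 0.12, SE; limma, Benjamini-Hochberg adjusted p = 0.0472). Of 15 Wnt effectors 4 had the clone below every line and 4 above, with a median of 0.057. Tcf7l1, the repressor of Esrrb and other members, stood at 9.89, 10.11 and 9.70 in the lines and 10.01 in the clone. Axin2, a target of beta-catenin, stood at 8.70, 8.58 and 8.66, against 8.39. Lef1 differed most among the Wnt effectors and in the other direction, by -0.53. It stood at 9.29, 9.35 and 8.76, against 9.66. Ccnd1 was also highest in the clone, at 10.29, 10.32 and 9.84 in the lines, against 10.36.

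Of 14 genes of FGF and ERK signalling and its feedback, 5 had the clone below every line and 2 above, with a median of 0.025 and none called. The shares over all bright genes were 29.9% and 21.4%. Egr1, an early target of ERK, stood at 10.28, 10.11 and 9.85 in the lines and 10.57 in the clone. Etv5, of the same list, went the other way, at 11.55, 11.23 and 11.33 in the lines and 11.15 in the clone. Among the 7 genes listed as repressed by Prdm14 the clone was above every line for 3 and below for 1, with a median of -0.25 and none called. These 7 overlap other lists: Dnmt3a, Dnmt3b and Fgf5 are also among the primed epiblast markers below, and Fgfr1 and Fgfr2 among the FGF and ERK genes. Dnmt3l, a cofactor of de novo methylation, stood at 11.53, 11.90 and 11.78 in the lines and 11.99 in the clone. Fgfr2 stood at 7.84, 7.76 and 7.63, against 8.05, while Fgfr1, on chromosome 8, stood at 8.81, 8.90 and 9.46, against 8.68. Of 6 listed partners of Prdm14, the Polycomb subunit Suz12 differed most, by 0.31 ± 0.08 (SE; limma, Benjamini-Hochberg adjusted p = 0.856).

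Of the other 19 core and naive genes, 5 had the clone below every line and 3 above, the median difference was -0.013, and none was called. Nanog stood at 12.28, 12.28 and 12.04 in the lines and 12.05 in the clone, and Pou5f1, which encodes Oct4, at 12.25, 12.21 and 12.20, against 12.22. Mycn differed most between lines and clone, by -0.46, at 10.80, 10.87 and 10.23, against 11.10. Line 3 was the lowest array for 10 of the 19 and the highest for 4, where the shares over bright genes were 31.1% and 26.7%. Dppa3 departed most there, by -1.02 from the other arrays, at 9.88, 9.50 and 8.55 in the lines and 9.32 in the clone. In these arrays of whole cultures, fewer cells of a kind and less RNA per cell cannot be told apart. Of 12 markers of the primed epiblast, the state that follows the naive one, 6 were above every line in the clone and 0 below, where the shares over bright genes were 21.4% and 29.9%. The 6 were Pou3f1, Dnmt3b, Lef1, Sox3, Cldn6 and Sall2, of which Sall2 was under the median level. The median difference of the 12 markers was -0.29, and none was called. Their levels summed to 94.8 to 96.4 in the lines and 98.5 in the clone, with 4 of 12 under the median level, and Fgf5 stood at 5.69 to 5.88 in the lines and 5.88 in the clone. Sox3, one of them, stood at 7.38, 7.48 and 7.25, against 7.78. The 16 fibroblast markers summed to 138 to 140.2 in the lines and 138 in the clone, and 3 were under the median level; line 2 was highest for 9. The 10 primitive endoderm markers summed to 75 to 75.3 and 74.5, with 6 under the median, and the 8 trophectoderm markers to 58.8 to 61.1 and 58.3, with 3 under it. The median difference between lines and clone was 0.043 for the fibroblast, 0.045 for the primitive endoderm and 0.20 for the trophectoderm markers, the last about as large as that of the members (0.19). The part of these cell types in the members' differences was not tested. The 8 markers of pluripotent cells were all bright on these arrays and summed to 96 to 97 in the lines and 96.6 in the clone.

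For the 3 members with the widest range over the arrays, the bright genes of most similar pattern were looked up by the root mean square distance between levels centred on the 4 arrays. Nearest to Tfcp2l1 was Jak3, a JAK kinase of cytokine receptors, at 9.08, 8.85 and 8.98 in the lines and 8.41 in the clone (distance 0.049), followed by Notch4 and Gm9222. Within a distance of 0.1 there were 15 bright genes for Tfcp2l1, 125 for Tbx3 and 91 for Nr0b1. Nearest to Tbx3 were Sorl1, Dynlt3 and Erbb3, and nearest to Nr0b1 were Plekhg1, Ina and Klk8. With 4 arrays such a match is a description.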

How the data were processed

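The deposited table gave 1 value for each of 45101 probe sets on 4 Affymetrix arrays, on a log2 scale. Software and settings of its making are not given in the sources used here. Since 2 raised to the deposited log2 value averaged 1 on every array, each value has the form of a log intensity over its array's mean; it was multiplied back with an assumed mean of 7. The planned use of the deposited values as log2 intensities was kept as an alternative. The platform annotation named 1 gene for 34945 probe sets, and current symbols and chromosomes came from RefSeq (GRCm38.p6) for 34741 of them. The brightest probe set stood for its gene.

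All 18193 genes were fitted with limma 3.58.1 in R 4.3.3 (lmFit, eBayes, two-sided, Benjamini-Hochberg adjustment). The lone clone array was assumed to vary like the 3 lines, which left 2 residual degrees of freedom. The number of arrays limits the precision. Simulated data of 18193 genes for lines against clone gave a recovery of 6% at a true log2 change of 0.5, 85.4% at 1 and 98% at 2. The simulated noise followed the spread of the 3 lines, without a shift of a whole array. Genes with changes of all 3 sizes were present together. Recovery for a lone changed gene, or with an array shift, was not tested and can be lower.

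The members and gene lists were chosen with earlier results of these data known. Named genes are the members, up to 4 of each list by size of difference (lines against clone, and line 3), genes that a member's result turns on, and the 3 nearest patterns. Stat3, Dnmt3l, Pou5f1, Fgf5, Pou3f1 and Sall2 fall outside that rule and were chosen after their values were seen. Alternatives covered the choice of probe set, the assumed mean, the deposited scale, dim genes, quantile normalization, limma's prior and leaving out each array.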

Additional observations from a re-analysis of the deposited data

How the results depend on the processing

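No paired analysis was possible because the clone has 1 array. The labels do not give the numbers in Adeno-1 and NT-1 to NT-3 as a pairing. Between lines and clone no gene was called under any alternative, and the clone stayed below every line for 6 or 7 members. The members' median of 0.19 was 0.122 with means of probe sets, 0.166 and 0.218 with assumed means of 6 and 7.86, 0.157 after quantile normalization, 0.03 on the deposited scale, whose unit differs, and 0.147 to 0.214 without 1 line. The members above every line in the clone were 1 to 2 without 1 line. For line 3, the 84 calls (29 higher) became 168 (89 higher) with means of probe sets, 152 (71 higher) with the trended, robust prior, 127 (53 higher) after quantile normalization, 15 (1 higher) on the deposited scale and 0 to 0 without 1 of the other arrays, where 1 residual degree of freedom is left.

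Of 400 member values under alternatives, 379 kept direction and side of the threshold, 3 (Nr0b1 in line 3) gained a call and 18 changed sign, all of them uncalled. Between lines and clone, Klf5 was -0.039 after quantile normalization and -0.025 to 0.054 without 1 line, and Gbx2 -0.142 to 0.034. With means of probe sets, line 2 had Tfcp2l1 at -0.0138, Esrrb at -0.0934 and Nr5a2 at 0.0453, and line 3 had Nr5a2 at -0.138. Without 1 other array, line 2 had Tfcp2l1 at -0.112 to 0.255, Esrrb at -0.024 to 0.159, Nr0b1 at -0.111 to 0.196 and Klf2 at -0.0039 to 0.046, and line 3 had Klf5 at -0.041 to 0.037, Gbx2 at -0.134 to 0.042, Tcl1 at -0.109 to 0.066, Tfcp2l1 at -0.011 to 0.355, Tbx3 at -0.166 to 0.114, Klf2 at -0.0039 to 0.046 and Esrrb at -0.071 to 0.112. The cause was not tested. Values close to background carry little signal, which limits the dim probe sets of Tfcp2l1 and Tbx3.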
